A study of Mus musculus with 3 samples.

Results

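The genes of melanin pigment (Pmel, Tyrp1, Dct, Tyr, Mlana, Mitf, Mc1r, Oca2 and Slc45a2) were followed across 3 single-nucleus RNA libraries of mouse cornea. They were chosen by symbol and matched by Ensembl ID, and all 9 were among the 30406 gene IDs listed for every library. The choice was made with their levels in these libraries known, so the levels are given as a description without a test. Nuclei came from snap-frozen whole corneas, and each library pooled 5 mice that were 7 weeks old per the labels. The WT library came from untreated wild-type mice and the KO library from untreated mice lacking Aire, the thymic transcription factor that lets T cells be tested against tissue antigens, and whose loss causes autoimmune dry eye. The KO_PBS library came from mice that also lacked Aire and received phosphate-buffered saline for 14 days. The series text gives 6 weeks of age and day 7 of treatment instead, and its lacripep arm was not analysed here. The strain, the Aire allele and the sex were not given in the sources used here.

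Melanin is made in melanosomes, lysosome-related organelles of melanocytes and of the pigment epithelia of the retina, ciliary body and iris. Tyrosinase starts the synthesis from tyrosine, the related enzymes Tyrp1 and Dct act on later intermediates, and Pmel forms the fibrils on which melanin is laid down. Mitf is the transcription factor that drives many of these genes, and Mc1r is the receptor through which melanocyte-stimulating hormone acts on melanocytes. The central cornea is normally free of pigment, whereas the limbus, iris and ciliary body next to it hold pigmented cells.

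Each group was a single library, so no comparison had a replicate and no p-value is given. Levels are CPM, a gene's share of the UMIs that the common gene IDs hold in a library, times 1000000, with exact 95% Poisson intervals that cover counting error only. WT had 96587 barcodes with a median of 2261 UMIs, KO had 107031 with a median of 2980, and KO_PBS had 114357 with a median of 1432. KO_PBS stood apart from the other libraries. Its 8 listed lens genes summed to 8055.5 CPM, against 491.7 in WT and 188.2 in KO, and its 8 photoreceptor genes to 1974.8, against 134.6 and 47.04. The corneal epithelial keratin Krt12 was abundant in every library, at 26120.7 CPM in WT, against 13793.3 in KO and 6204.8 in KO_PBS. Aire itself gave 15 (WT), 27 (KO) and 68 (KO_PBS) UMIs, too few to check the labels. A difference between whole libraries cannot tell more pigmented cells from more pigment RNA per cell. How much lens, retina, iris or ciliary tissue was taken along with the corneas was not given in the sources used here. The part of such tissue in the pigment values of each library was not tested. It cannot be told apart from the genotype or the treatment.

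The members that encode the enzymes share a short promoter sequence, and that of Mc1r is shown beside them because Mc1r was the only member lower in KO_PBS than in the other libraries. The M-box core searched was TCATGTG on either strand, an extended E-box that Mitf is known to bind in pigment genes. RefSeq promoters (GRCm38.p6) were found for 6 of the 9 members, and each match to the core is printed in capitals, so CACATGA is the core on the other strand. The 250 bases before the RefSeq gene start are shown for Tyr (chr7:87493513-87493762, minus strand), Dct (chr14:118052247-118052496, minus) and Mc1r (chr8:123406832-123407081, plus). For Tyrp1 only 29 bases around the match are shown (chr4:80834155-80834183, plus), since its RefSeq start lies 90 bases inside the GENCODE gene model and the match therefore lies in that model.
Tyr: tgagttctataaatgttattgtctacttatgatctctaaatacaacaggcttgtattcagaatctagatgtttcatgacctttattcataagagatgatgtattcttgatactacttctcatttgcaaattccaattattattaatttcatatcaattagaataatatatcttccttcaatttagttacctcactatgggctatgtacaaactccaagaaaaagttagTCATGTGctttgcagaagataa
Tyrp1: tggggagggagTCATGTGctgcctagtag
Dct: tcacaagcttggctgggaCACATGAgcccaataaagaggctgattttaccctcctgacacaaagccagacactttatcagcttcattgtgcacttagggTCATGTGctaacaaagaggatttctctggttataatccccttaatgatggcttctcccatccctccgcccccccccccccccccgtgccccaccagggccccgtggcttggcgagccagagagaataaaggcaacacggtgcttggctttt
Mc1r: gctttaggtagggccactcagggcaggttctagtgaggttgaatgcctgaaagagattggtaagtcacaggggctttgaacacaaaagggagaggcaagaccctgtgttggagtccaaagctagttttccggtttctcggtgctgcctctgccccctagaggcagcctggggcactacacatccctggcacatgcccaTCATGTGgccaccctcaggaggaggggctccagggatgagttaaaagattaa
The match began 22 bases before the RefSeq start in Tyr, 47 in Tyrp1 and 52 in Mc1r, and Dct held 2 matches, 232 (other strand) and 151 bases before its start. In Tyr, Tyrp1 and Dct the core continued to TCATGTGCT, which the Mc1r promoter did not hold. Of 32851 RefSeq promoters of this length, 3.251% held the core and 0.3348% the 9-letter form. The 3 promoters of Mitf and the promoter of Oca2 had no match to the core, although Oca2 held the shorter E-box CATGTG, found in 12.25% of promoters. A match describes the letters only.

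The genes lie on 8 autosomes in GRCm38 with the GENCODE M21 annotation. The enzyme genes are Tyr (7:87424771-87493512, minus strand), Tyrp1 (4:80834123-80851719, plus) and Dct (14:118012790-118052244, minus). The structural and melanosomal genes are Pmel (10:128704195-128720238, plus) and Mlana (19:29697824-29708634, plus). The transporters are Oca2 (7:56239760-56536518, plus) and Slc45a2 (15:11000721-11029233, plus). The regulators are Mitf (6:97807052-98021349, plus) and Mc1r (8:123407107-123410744, plus). Their spans run from 3.638 kb in Mc1r to 296.8 kb in Oca2. Exons of Pmel overlap exons of Cdk2 and Dgka on the opposite strand, and the use of strand in counting was not given in the sources used here. Cdk2 had 7.276 CPM in WT, 13.04 in the KO library and 26 with PBS. Dgka had 79.84, 87.48 and 58.13 CPM. Neither gene had the order of Pmel. The part of the overlapping exons in the Pmel values was not tested.

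Pigment transcripts were lowest in KO and highest in KO_PBS. The 9 genes summed to 535.1 CPM in WT (532.3 to 538), 194.9 in KO (193.4 to 196.3) and 4319.7 in KO_PBS (4310.1 to 4329.4). No interval overlapped another. For 7 of the members (Tyr, Tyrp1, Dct, Pmel, Mlana, Oca2 and Slc45a2) the order was KO, WT, KO_PBS from low to high, while Mitf and Mc1r each had an order of its own.

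Among the enzymes, Dct, which encodes dopachrome tautomerase, had the most UMIs. Its level was 338.8 CPM in WT and 95.43 in KO, but 2032.9 in KO_PBS. Tyrp1 had 26.02 CPM in WT and 11.76 in KO, but 536.5 in KO_PBS. Tyr, the gene of the rate-limiting enzyme tyrosinase, was at 6.717, 4.301 and 135 CPM in that order. All 3 enzymes were thus lowest in KO and far above both other libraries in KO_PBS.

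The structural genes followed the same order. Pmel was at 81.02 CPM in WT (20736 UMIs), 20.2 in KO (7098) and 1192.2 in KO_PBS (211992). Mlana, whose product MART-1 is a melanosome membrane protein, was at 28.75, 7.039 and 212.4 CPM. Of the transporters, Oca2, which supports the near-neutral pH that tyrosinase needs, was at 7.139 in WT and 2.963 in KO, but 78.27 in KO_PBS. Slc45a2, another melanosomal transporter and the member with the fewest UMIs in WT and KO, was at 4.29, 1.184 and 28.75 CPM. Even its 416 UMIs in KO gave an interval of 1.073 to 1.303, clear of the other libraries.

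The regulators departed from this order. Mitf was at 10.18 CPM in WT, then 32.27 in KO and 100.6 in KO_PBS, so WT and not KO was the lowest library. Mc1r ran the other way, at 32.17 CPM in WT (8233 UMIs), 19.71 in KO (6926) and 3.076 in KO_PBS (547).

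**Figure D1:**
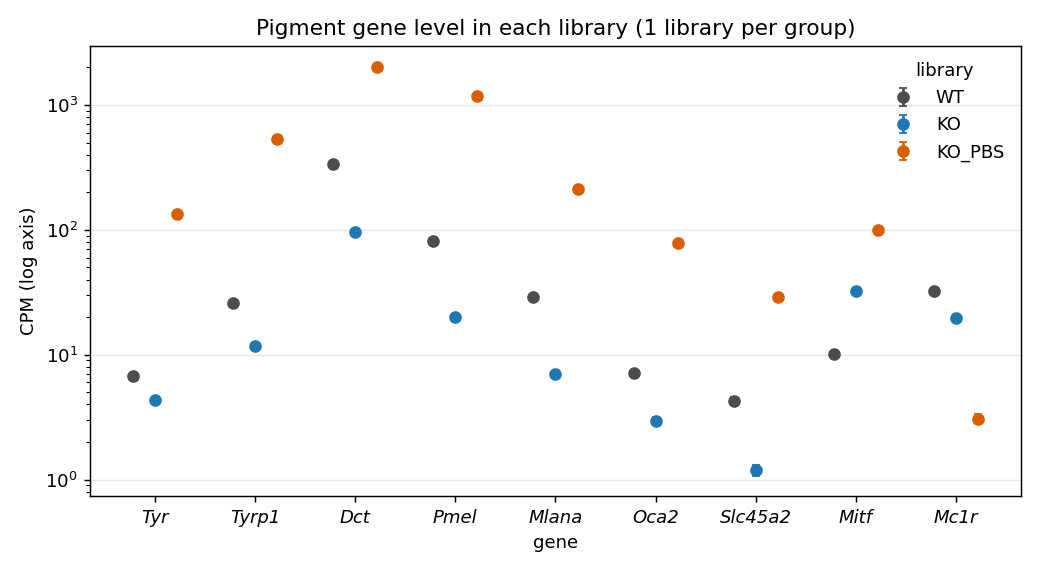
Level of each pigment gene (CPM, log axis) in the WT, KO and KO_PBS libraries, 1 point per library, with exact 95% Poisson intervals that are mostly smaller than the points. KO_PBS is the highest point for every gene but Mc1r, which reads 3.076 there against 32.17 in WT, and KO is the lowest for every gene but Mitf and Mc1r.

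The makeup of the pigment signal shifted between libraries as well. Dct held 63.32% of the members' UMIs in WT but 48.97% in KO and 47.06% in KO_PBS. The share of Pmel was 15.14%, 10.37% and 27.6%. Mitf held 1.903% in WT but 16.56% in KO, with 2.329% in KO_PBS, and Mc1r 6.012%, 10.12% and 0.07121%. In KO the 2 regulators therefore made up a larger part of the signal than in either other library. On levels per kilobase of exon, Dct led in WT (57.48 CPM per kb) and KO (16.19), with Pmel (35.35 and 8.815) and Mlana (27.2 and 6.659) next. In KO_PBS Pmel led at 520.1 CPM per kb, followed by Dct at 344.9, Mlana at 200.9 and Tyrp1 at 189.7. At the lower end of this scale stood Tyr in WT (0.945), Slc45a2 in KO (0.3969) and Mc1r in KO_PBS (0.8456). Of 8 neighbouring pairs in each order, Tyrp1 and Mc1r overlapped in WT, Mc1r and Mitf overlapped in KO, and none overlapped in KO_PBS. These 3' libraries count UMIs and not bases, so the order per kilobase is not an order of molecules. By CPM, Dct was above Pmel in KO_PBS (2032.9 against 1192.2) and Tyrp1 above Mlana (536.5 against 212.4).

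The comparison of KO with WT asks what loss of Aire does to the untreated cornea. It also spans a difference in lens and photoreceptor RNA. The lens genes summed to 491.7 CPM in WT and 188.2 in KO, and the photoreceptor genes to 134.6 and 47.04. The part of this difference in the pigment values was not tested. Genes with 50 or more UMIs summed over the pair of libraries were tested, and a tested gene was called when its level differed by at least 2-fold with intervals that did not overlap. By this rule 6 members were lower in KO (Mlana, Pmel, Slc45a2, Dct, Oca2 and Tyrp1), Mitf was higher, and Tyr and Mc1r were not called. Of 20252 genes tested, 8.63% were called lower and 20.6% higher. The members chosen for this pattern cannot support it, and nothing is read from their count.

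Mlana had the lowest log2 ratio, -2.03 (interval -2.10 to -1.96), followed by Pmel at -2.00, which is a 4.01-fold lower level in KO. Slc45a2 was at -1.86 on the log2 scale, Dct at -1.83, Oca2 at -1.27 and Tyrp1 at -1.15. Tyr (-0.64) and Mc1r (-0.71) were lower by less than 2-fold. Mitf was 3.169-fold higher in KO, a log2 ratio of 1.66. The members' median log2 ratio was -1.27, while the median over all genes tested was 0.24. With ratios centred on that median gene, which puts 12.9% of tested genes lower and 14.8% higher, the same numbers of members were called in each direction, with a median of -1.51.

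Mitf is also expressed in macrophages, and the 5 macrophage markers summed to 37.48 CPM in WT, against 438.9 in KO and 524.8 in KO_PBS. In the 424 KO barcodes rich in macrophage markers (at least 3 marker UMIs and 5 times the number their depth gives), Mitf was at 34.25 CPM (24.12 to 47.21), against 30.77 in the 25% of KO barcodes with the fewest UMIs. The 2 values overlap, and the part of macrophages in the Mitf level was not tested. In KO barcodes rich in plasma cell markers by the same rule it was at 21.12.

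The comparison of KO_PBS with KO asks what the saline treatment does in mice lacking Aire, but it also spans the difference in lens and photoreceptor RNA described above. Of the members 8 were higher in KO_PBS and Mc1r was lower, beside 39.9% of 22416 tested genes called higher and 4.7% called lower. Pmel was 59.01-fold higher (log2 ratio 5.88, interval 5.85 to 5.92) and Tyrp1 45.63-fold higher (5.51). The ratios were 31.4-fold for Tyr, 30.17-fold for Mlana, 26.42-fold for Oca2, 24.28-fold for Slc45a2 and 21.3-fold for Dct. Mitf was 3.118-fold higher, a smaller ratio than that of the 7 genes it is known to drive. The members' median log2 ratio was 4.72, against 0.63 over all genes tested, and centring left the 8 higher and 1 lower (background 29.8% and 12.9%), with Mitf then at 2.014-fold and a median of 4.09.

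The comparison of KO_PBS with WT differs in both genotype and treatment and shares a library with each of the others. Here again 8 members were higher and Mc1r was lower, beside 57% of 22138 tested genes called higher and 4.06% lower, a background so high that the count says little. Tyrp1 (20.62-fold) and Tyr (20.1-fold) had the highest ratios, followed by Pmel at 14.71-fold, Oca2 at 10.96-fold and Mitf at 9.88-fold. Dct, at 6-fold, had the lowest ratio of those called higher. The members' median log2 ratio was 3.30, against 1.27 over all genes tested, and after centring 8 were again higher and 1 lower (background 29.6% and 23.1%). Centring lowered the ratios to 8.553-fold for Tyrp1, 8.34-fold for Tyr, 6.104-fold for Pmel, 4.099-fold for Mitf and 2.489-fold for Dct, with a median log2 ratio of 2.04.

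**Figure D2:**
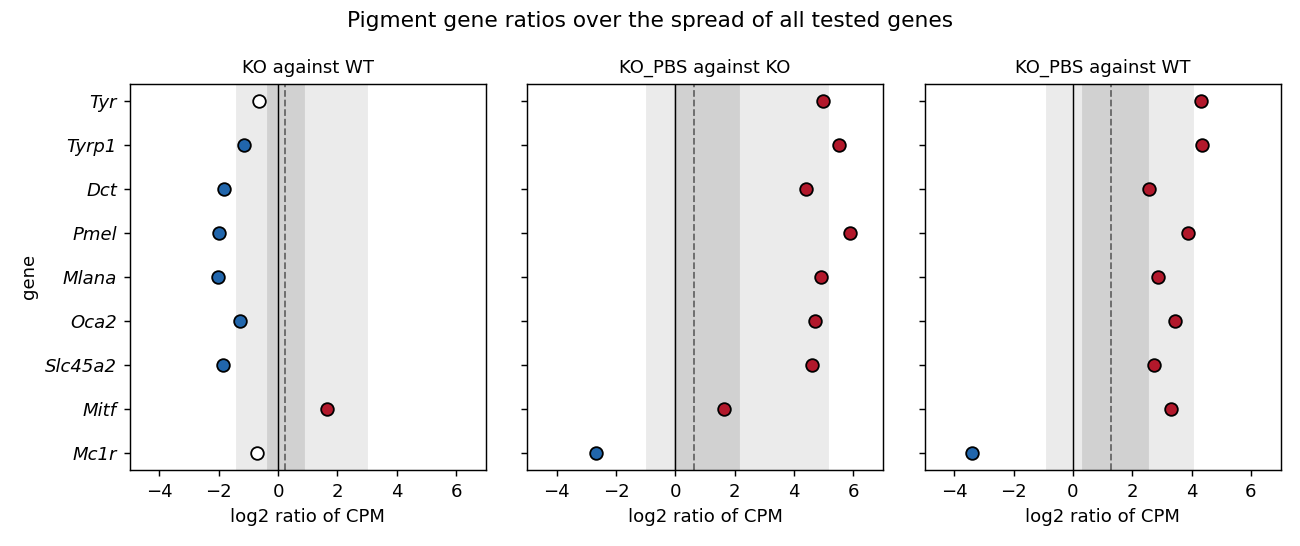
Log2 ratio of each pigment gene in the 3 comparisons, with red points called higher, blue points called lower and white points not called. Dark and light grey bands span the middle 50% and 90% of all tested genes, the dashed line is their median (0.24, 0.63 and 1.27), and Mc1r (-2.68 and -3.39) lies on the opposite side from the other members in both comparisons with KO_PBS.

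The low Mc1r value in KO_PBS coincided with a difference between the deposited gene lists. Mc1r lies inside the span of Gm20388 (8:119910841-124345722, plus strand), a gene model 4.435 Mb long on the same strand, and no exon of it overlaps Mc1r. Gm20388 is listed for KO_PBS only, where it held 48163 UMIs, or 269.1 CPM. Genes inside this span were compared by strand, a check added after the Mc1r value was seen. In KO_PBS against KO, the 45 other tested genes on the strand of Gm20388 had a median log2 ratio of 0.06, with 9 called higher and 7 lower. The 42 genes on the opposite strand had a median of 0.51, with 13 called higher and 0 lower, and all tested genes had 0.63. Between WT and KO, where Gm20388 is in neither list, the medians were 0.20 on its strand and 0.30 on the other. Mc1r was lower than these neighbours, at -2.68 (interval -2.81 to -2.55), a 6.408-fold difference. Only Gm45894 (-3.72) and Il17c (-3.14), picked out after their values were seen, were lower still inside the span. The part of the gene list in the Mc1r value was not tested, and the comparisons of Mc1r with KO_PBS rest on lists that differ at this locus.

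**Figure D3:**
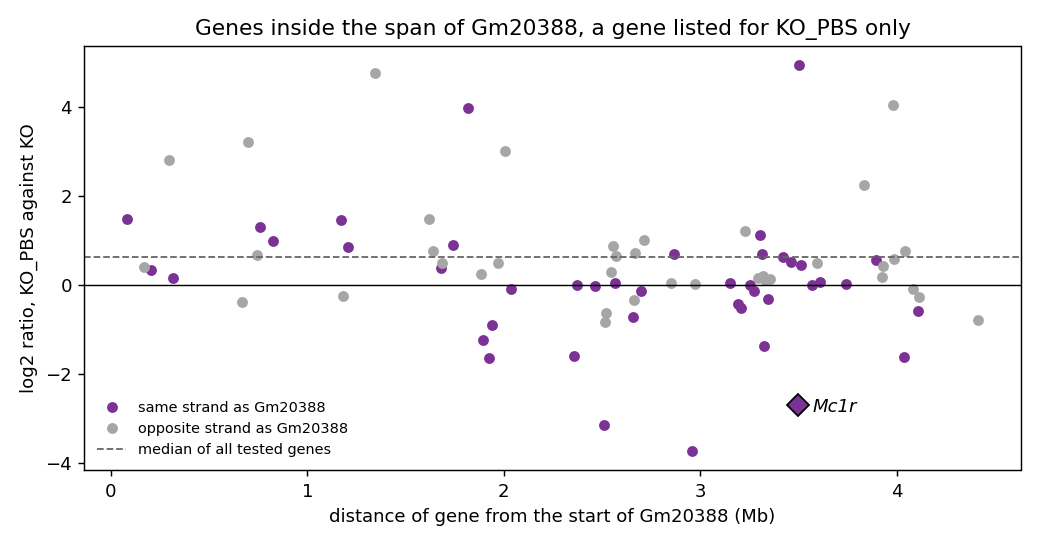
Log2 ratio of KO_PBS against KO for the tested genes inside the span of Gm20388, by the distance of the gene from its start (Mb), in purple on the same strand and in grey on the opposite strand. Mc1r (diamond, -2.68) is below nearly all of them, and the genes called lower (7 of 45) are all on the strand of Gm20388.

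The summed level of pigment transcripts was much alike in shallow and deep barcodes. Barcodes of each library were split by depth into 4 groups of 25%. From the shallowest group to the deepest, the members summed to 598, 583.5, 543.3 and 482.7 CPM in WT. The same groups read 208, 203.2, 194.5 and 184.1 in KO, and 4167.9, 4242.1, 4353.4 and 4323.9 in KO_PBS. Every depth group of KO_PBS was thus above every depth group of WT, and every one of WT above every one of KO. This evenness hid a difference among members in KO_PBS. There Pmel went down from 1328.0 CPM in the shallowest group to 1060.8 in the deepest, whereas Tyr went up from 84.66 to 181.8, Mitf from 62.48 to 137.6 and Oca2 from 52.32 to 104.7. In WT the same 3 genes did not go up with depth: Tyr went from 7.623 to 6.061, Mitf from 11 to 10.31 and Oca2 from 8.217 to 6.64.

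Shares of barcodes with a pigment UMI were compared after each barcode was thinned to 1000 UMIs, which left out 250 shallower barcodes of WT, 219 of KO and 16277 of KO_PBS. Of the rest, 37.24% had at least 1 UMI of a member in WT, against 17.2% in KO and 98.07% in KO_PBS (62.82%, 42.76% and 99.62% before thinning). Lens cells make no melanin, but barcodes rich in lens markers also held corneal epithelium markers, at 0.9304 times their level in the rest in WT. The ratio was 0.9753 in KO and 0.643 in KO_PBS, so the shares in such barcodes are not a background free of other cells. In barcodes rich in lens markers (at least 5 marker UMIs and 10 times the number their depth gives), the thinned share was 35.63% in WT, 17.19% in KO and 26 of 26 in KO_PBS. In barcodes rich in corneal endothelium markers it was 31.97%, 13.66% and 66.67% (16 of 24). Median depths before thinning were 2264, 2983 and 1528 UMIs over all barcodes kept and 2178, 3098 and 1912 in those rich in lens markers. Since most of the share over all barcodes was also present in these classes, a pigment UMI in a barcode is not read as a sign of a pigmented nucleus. Single genes were not all at the same share in lens-marker barcodes as over the library. Dct was found in 25.81% of all thinned WT barcodes and in 23.88% (20.33 to 27.72) of those rich in lens markers. Tyrp1 was found in 2.579% and 1.119% (0.4119 to 2.42), and Mc1r in 3.494% and 1.679% (0.7706 to 3.163). Slc45a2 went the other way, at 0.4287% and 1.306% (0.5266 to 2.672). These shares rest on few of the 536 lens-marker barcodes, 6 for Tyrp1, 9 for Mc1r and 7 for Slc45a2, after a random thinning. Before thinning, Slc45a2 was at 1.098% and 1.679%, so its difference is not read as a result. In KO_PBS, Dct was found in 85.36% of all thinned barcodes, against 65.38% (44.33 to 82.79) of those rich in lens markers and 45.83% (25.55 to 67.18) of those rich in corneal endothelium markers.

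By the main rule few barcodes stood far above their library's own share of pigment RNA. With at least 5 member UMIs and 10 times the number expected from the library's share, 340 barcodes of WT (0.352%) and 159 of KO (0.1486%) were pigment-rich, with 0 of 114357 in KO_PBS, which allows a share of up to 0.003226% (exact Clopper-Pearson limit). They held 5.113% of the members' UMIs in WT and 1.878% in KO. In KO_PBS the library's own share is so high that a barcode of median depth could hardly reach 10 times it, so the count does not mean the same there. In KO, 114 barcodes, passing or not, were within 1 of both 5 UMIs and 10 times the expected number, against 8 in WT. Without Dct in the sum the numbers were 294 in WT and 58 in KO, and after thinning to 1000 UMIs they were 403 and 22, so the KO number depended on the rule by more than 1.5 times. The WT number did so as well, at 1966 with 3 UMIs and 5 times and 51 with 8 UMIs and 20 times (1926 and 18 in KO). The range from 340 to 159 is thus not read as a difference between the genotypes.

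A second choice, added after the main rule gave no barcode in KO_PBS, took the 100 barcodes in each library with the highest standardized excess of pigment UMIs. So that no gene chose its own barcodes, each member was measured in the 100 barcodes picked by the other 8. In WT, Slc45a2 was 30.86-fold higher in such barcodes than in the rest (22.33 to 41.57), Pmel 22.64-fold, Mlana 20.63-fold, Tyrp1 19.9-fold and Dct 17.76-fold. Oca2 (11.34-fold), Mitf (10.58-fold) and Tyr (8.439-fold) were raised less. Each of these 8 genes was thus raised in the WT barcodes picked by the other members. The sets share most of their choosing genes, and Dct held 63.32% of the members' UMIs in WT, so they are not separate choices.

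In KO the ratios were lower and the counts small. Pmel was 16.6-fold higher in the barcodes picked by the other members, Tyrp1 15.23-fold, Mlana 12.57-fold and Dct 7.855-fold. Mitf was 1.941-fold higher in KO (1.201 to 2.967). Its level in the picked barcodes of KO, 62.35 CPM (38.59 to 95.3), overlapped the 106 of WT (74.22 to 146.7), while the rest of the barcodes were at 32.12 in KO and 10.02 in WT. Tyr and Oca2 rested on 6 UMIs each in those barcodes of KO, and Slc45a2 on 5.

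In KO_PBS the order of the members was different, and the barcodes picked were deeper, at a median of 3624 to 5171 UMIs. Oca2 was 7.656-fold higher in the barcodes picked by the other members, Tyr 7.231-fold and Mitf 6.002-fold, while Dct was 3.496-fold, Tyrp1 2.55-fold, Mlana 2.491-fold and Pmel 1.937-fold higher. Slc45a2 had an interval that included no difference, 1.42-fold (0.9004 to 2.131). The 3 members with the highest ratios in KO_PBS are those with the longest spans, 68.74 kb for Tyr, 214.3 kb for Mitf and 296.8 kb for Oca2, and in WT the same 3 had the lowest ratios but for Mc1r. Set against the deepest 25% of KO_PBS, where these 3 genes were higher, the ratios were 5.569 for Oca2, 5.236 for Tyr and 4.293 for Mitf, still above the 3.336 of Dct and the 2.156 of Pmel. Apart from Mc1r the shortest member is Mlana (10.81 kb), with ratios of 20.63 in WT and 2.491 in KO_PBS. The level in the rest of the barcodes, against which the ratios are taken, was 78.52 CPM for Pmel and 6.627 for Tyr in WT, and 1180.6 and 131.6 in KO_PBS. The points share libraries, so this is a description of 9 genes and carries no test. The richest barcodes also differed in other markers: in the 100 picked by all members, pigment epithelium markers were 8.126 times their level in the rest in WT and 1.094 times in KO_PBS. Smooth muscle markers were at 7.147 and 2.212 times, and melanocyte markers at 4.167 and 3.345 times. In WT the median of the 100 was 0 UMIs for pigment epithelium and smooth muscle markers and 3 for melanocyte markers. The WT ratios of pigment epithelium and smooth muscle markers thus come from part of the barcodes. The part of these markers, or of gene span, in the order of the members was not tested.

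Mc1r was not raised where the other members were. In the 100 barcodes picked by the other 8 members its ratio was 1.01 in WT (11 UMIs, 0.5043 to 1.807), 0.5905 in KO (4 UMIs) and 0.5858 in KO_PBS (1 UMI). Each of these intervals includes 1, and at this depth no concentration of Mc1r in pigment-rich barcodes was detectable. The KO_PBS interval, 0.01483 to 3.264, also covers the ratios of Pmel, Mlana, Tyrp1 and Slc45a2 there.

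**Figure D4:**
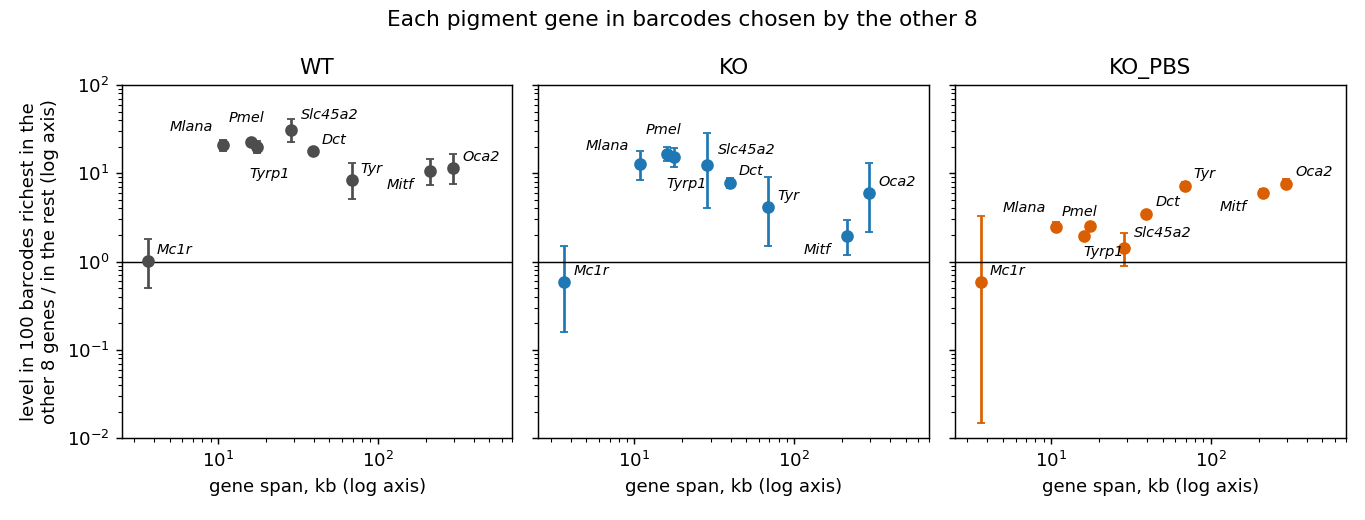
Ratio of each pigment gene's level in the 100 barcodes richest in the other 8 members to its level in the remaining barcodes (log axis), by the span of the gene (kb, log axis), with 1 panel per library and intervals for counting error. In WT the short genes Slc45a2, Pmel and Mlana are above Tyr, Mitf and Oca2, in KO_PBS the long genes are above them, and the interval of Mc1r includes 1 in each panel.

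Barcodes were next chosen by markers that are not members, so that no UMI of a member entered the choice. The choice is still not independent of the members. The lists were made with earlier results of these data known, and Gpnmb and Trpm1 of the melanocyte list were raised in the 100 barcodes richest in pigment UMIs. The levels are a description. In WT, 311 barcodes were rich in markers of pigment epithelium (a list of 12 genes that includes Rpe65, Rgr, Rlbp1 and Ttr). The members summed to 1758.4 CPM in them (1679.0 to 1840.5), 2.941 times the 598 of the shallowest 25%. In KO, 179 such barcodes had 606.9 (553 to 664.7), a ratio of 2.917. Photoreceptor markers were also higher in these barcodes than in the rest, 2.539 times in WT and 9.675 times in KO. The median such barcode held 0 photoreceptor UMIs in both libraries, so these ratios come from part of the barcodes. In KO_PBS, 135 such barcodes had 4824.7 (4592.3 to 5065.9) against 4167.9, a ratio of 1.158. Their median depths were 2791, 3854 and 2042 UMIs. These classes are ranges of a score and not cell types: by the looser rule of 3 UMIs and 5 times, they held 969, 523 and 1264 barcodes. By the stricter rule Ttr gave the most marker UMIs in WT (2712, next Rgr at 354) and in KO (1327, next Rdh5 at 124). In KO_PBS Ttr led by less, at 1004, with Rpe65 at 502 and Rgr at 452. The barcodes of KO_PBS thus differed in leading markers, and the 3 ratios are not read as a difference between libraries.

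Within these barcodes the members again split in KO_PBS. Oca2 was at 385.4 CPM (321.8 to 457.9), 7.366 times its level in the shallowest 25%. Mitf was at 355.5, a ratio of 5.69, and Tyr at 224.1, a ratio of 2.647. Pmel was at 857.4 (761.1 to 962.6) against 1328.0 in the shallowest 25%, a ratio of 0.6456, and Mlana and Tyrp1 were also at or below it, at 0.7862 and 0.8791. In WT the ratios of all members but Mc1r lay between 1.563 (Tyrp1) and 3.499 (Dct), with Pmel at 2.62 and Oca2 at 2.089. In KO_PBS these barcodes had a median depth nearer to that of the deepest 25% (2154 UMIs), where Oca2, Mitf and Tyr were higher. Set against the deepest 25%, a comparison added after the data were seen, the ratios were 3.68 for Oca2, 2.584 for Mitf and 0.8082 for Pmel. Tyr was then at 1.233, and its interval of 176.2 to 280.9 CPM includes the 181.8 of the deepest group. Among the 6 genes named here for KO_PBS, only Oca2 and Mitf were thus clear of both depth groups on the high side. Pmel alone was clear of both on the low side. Dct, which held 47.06% of the members' UMIs in KO_PBS, is not among the 6, so they do not describe all members.

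Markers of melanocytes gave a less certain class. By the stricter rule it held 19 barcodes in WT, where the members summed to 7068.9 CPM (6344.6 to 7853.3), 11.82 times the shallowest 25%. Their marker UMIs came from Gpnmb (51), Trpm1 (39), Ednrb (26) and Kit (21), while the neural crest factors Sox10 and Pax3 had 1 and 0 UMIs. Over the whole WT library these factors were at only 2.047 and 1.211 CPM, so such counts cannot show their absence. Smooth muscle markers of the iris and vessels were 17.69 times as high in these 19 barcodes as in the rest, pigment epithelium markers 4.76 times and corneal endothelium markers 3.598 times. The median barcode held 0 UMIs of smooth muscle and pigment epithelium markers and 1 of corneal endothelium markers, as in the rest. These pooled ratios thus come from part of the barcodes. Their identity was not settled, so the barcodes are called by their leading genes and not as melanocytes. In KO, 23 barcodes passed and had 499.8 CPM of the members (346.1 to 698.4), with corneal endothelium markers at 15.44 times their level in the rest, pigment epithelium markers at 7.616 times and smooth muscle markers at 1.149 times. The median of the 23 was 4 UMIs of corneal endothelium markers and 0 of pigment epithelium or smooth muscle markers. The barcodes chosen in WT and KO thus differed in other markers, and their pigment levels are not compared. In KO_PBS no barcode passed. By the looser rule the ratio to the shallowest 25% was 2.529 in WT (1158 barcodes), 1.431 in KO (1196) and 2.344 in KO_PBS (113), and in KO_PBS Gpnmb (614 UMIs) and Trpm1 (377) again made up most of the marker UMIs.

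Barcodes rich in smooth muscle markers also carried pigment RNA. The 161 such barcodes of WT had 1660.5 CPM of the members, 2.777 times the shallowest 25%, with Mlana at 3.992 and Pmel at 3.873 times. In KO the ratio was 1.616 over 55 barcodes (1.1 over 282 by the looser rule), and in KO_PBS 1.938 over 8. Barcodes rich in photoreceptor markers had ratios of 0.8484, 0.8903 and 0.7499 in WT, KO and KO_PBS, and those rich in lens markers 0.8123, 0.864 and 0.6722. The sum of the 9 genes was thus above that of the shallowest 25% in barcodes chosen by pigment epithelium or smooth muscle markers, although Pmel, Mlana and Tyrp1 were not in the KO_PBS barcodes chosen by pigment epithelium markers. In barcodes chosen by lens or photoreceptor markers the sum was near the level of the deepest 25% in WT and KO, at 0.9763 to 1.051 times. In KO_PBS it was below both depth groups, at 0.7229 (photoreceptor) and 0.6479 (lens) times the deepest.

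**Figure D5:**
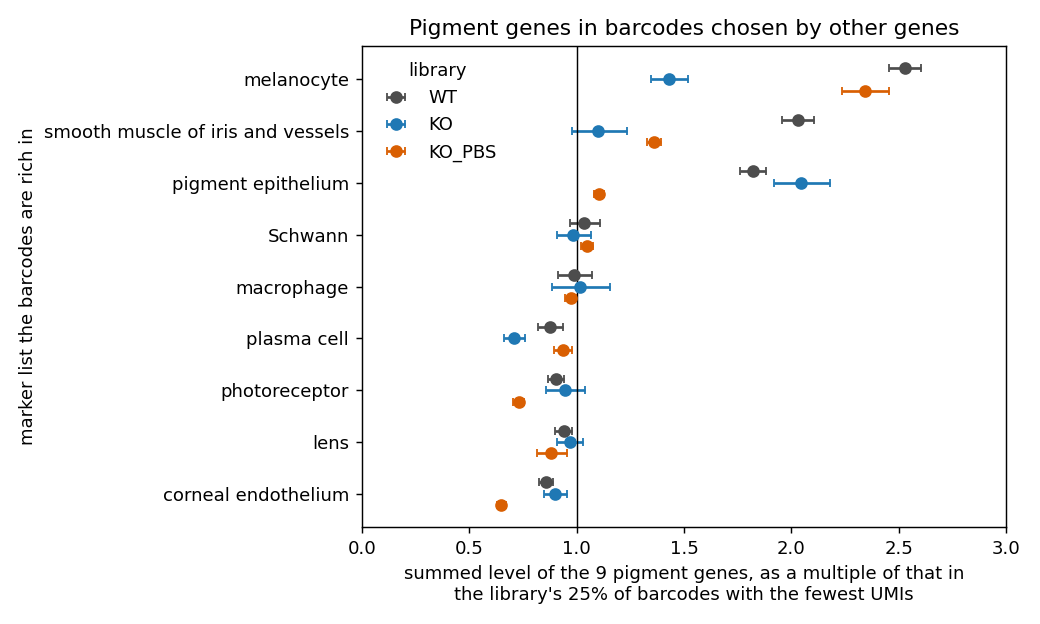
Summed level of the 9 pigment genes in barcodes rich in markers of a cell class (at least 3 marker UMIs and 5 times the number their depth gives), as a multiple of the level in the library's 25% of barcodes with the fewest UMIs, with intervals for counting error. Barcodes rich in melanocyte markers lie at 2.529, 1.431 and 2.344 in WT, KO and KO_PBS, those rich in pigment epithelium markers at 1.822, 2.046 and 1.105, and those rich in lens, photoreceptor or corneal endothelium markers at or below 1.

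The genes whose distribution was most like that of the members were ranked by the ratio between the 100 barcodes richest in pigment UMIs and the rest, as a geometric mean over the 3 libraries, among 1758 genes with at least 20 UMIs in those barcodes of every library. Gpnmb, a melanosomal glycoprotein related to Pmel, came first at 7.354, with 14.22 in WT, then 7.151 in KO and 3.913 in KO_PBS. Ptgds, which encodes a prostaglandin D2 synthase, followed at 6.75 (16.08, 11.2 and 1.708), and Trpm1, a cation channel of melanocytes and retinal bipolar cells, at 5.797 (8.035, 5.644 and 4.296). Cox8b, at 4.275, was raised in WT (10.57) and KO (8.127) but not in KO_PBS (0.9091), and Mgll, at 3.796, had ratios of 5.69, 2.396 and 4.011. On the same measure Dct was at 11.98 and Pmel at 11.65, genes that helped to choose the barcodes, while Mc1r was at 0.804.

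The other genes of the melanin pathway went in both directions in KO. Of 13 regulators and signalling genes, 4 were called higher and 0 lower in KO against WT, beside 20.6% and 8.63% of all tested genes, led by Tfec (log2 ratio 3.51), Zeb2 (3.38) and Lef1 (2.37). Sox10 (0.02) and Pax3 (0.18) were not called. Macrophage markers summed to 37.48 CPM in WT and 438.9 in KO, and T cell markers to 1.758 and 73.65. The part of such cells in these ratios was not tested. In KO_PBS against KO, 6 of the 13 genes were higher and 1 lower (39.9% and 4.7% of all tested genes). Edn3, a ligand of the melanoblast receptor Ednrb, went from 2.977 to 70.59 CPM (4.57), Otx2, a factor of retinal pigment epithelium and photoreceptors, from 2.468 to 47.93 (4.28), and Sox10 from 2.072 to 14.59 (2.82). In KO_PBS against WT, 9 were higher and 1 lower (57% and 4.06% of all), led by Tfec (4.32), Otx2 (3.80) and Lef1 (3.72). The medians of this list were 0.02, 0.95 and 2.76, beside 0.24, 0.63 and 1.27 over all genes tested.

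Of 11 other genes of the melanosome membrane and lumen, 4 were higher and 3 lower in KO against WT (20.6% and 8.63% of all tested genes), or 1 higher and 3 lower after centring (14.8% and 12.9% of all). Gpr143, the ocular albinism receptor, was lower at -1.73 and Trpm1 at -1.38 on the log2 scale, while the copper transporter Atp7a, which supplies tyrosinase, was higher at 1.58. In KO_PBS against KO, 8 were higher and 0 lower (39.9% and 4.7% of all), or 5 and 0 after centring (29.8% and 12.9%), with Trpm1 from 11.3 to 346.1 CPM (4.94), Gpr143 from 0.4156 to 10.44 (4.65) and Gpnmb from 25.16 to 500 (4.31). In KO_PBS against WT, where 57% of all tested genes were called higher, 9 were higher and 0 lower, or 5 and 0 after centring (29.6% and 23.1% of all), with Gpnmb at 4.13, Trpm1 at 3.56 and Gpr143 at 2.92. The medians were 0.02, 1.61 and 2.05. Gpr143 and Trpm1 thus had the same signs as the enzymes in all 3 comparisons.

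The 22 genes of melanosome biogenesis and transport, most of them used by lysosomes in many cells, were measured in every library. In KO against WT 3 were higher and 1 lower (20.6% and 8.63% of all tested genes), and in KO_PBS against KO 4 and 0 (39.9% and 4.7% of all). In KO_PBS against WT 8 were higher and 0 lower (57% and 4.06% of all), which after centring became 3 higher and 7 lower (29.6% and 23.1% of all). Their medians were 0.37, 0.29 and 0.66 on the log2 scale, against 0.24, 0.63 and 1.27 over all genes tested, so the list lay below the median gene in both comparisons with KO_PBS. Mlph and Rab27a, which with Myo5a carry melanosomes along actin, were among the exceptions. Mlph went from 12.75 in WT to 5.926 in KO and 71.33 in KO_PBS, and Rab27a from 8.405 to 12.46 and 72.54 CPM. Myo5a was higher in KO than in WT (1.85) and Hps3 likewise (1.09). Bloc1s1 was at 1.67 in KO_PBS against KO, and Myo5a at 3.08 in KO_PBS against WT.

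Markers of pigment epithelium, photoreceptors, lens and corneal endothelium had members that were lower in KO and higher in KO_PBS, as the pigment genes did. Of 12 pigment epithelium markers, 5 were lower and 2 higher in KO against WT, and 10 were higher and 0 lower in KO_PBS against KO. Over all tested genes the shares were 8.63% lower and 20.6% higher in KO against WT, then 39.9% higher and 4.7% lower, and after centring 9 of the 12 were still higher in KO_PBS. Their sum was 90.27, 44.61 and 504.9 CPM in WT, KO and KO_PBS. All 8 photoreceptor markers were lower in KO than in WT and higher in KO_PBS than in KO, and of 8 lens markers 6 and then 8 did the same. The 10 melanocyte markers, which share Gpnmb, Trpm1 and others with the pathway lists, summed to 238.5, 171.5 and 1124.1, with 1 lower in KO against WT (median log2 ratio -0.01), then 9 higher and 1 lower (Kit) in KO_PBS against KO. Kit, the receptor of stem cell factor, made up much of their sum in WT and KO and went from 122.7 in WT to 86.27 in KO, a change not called, and to 40.16 CPM in KO_PBS. Smooth muscle markers of the iris and vessels summed to 63.76, 38.51 and 600.8, with 1 of 5 lower and then 5 of 5 higher. No marker of these lists was at 0 in any library, and their part in the pigment result was not tested. The 8 Schwann cell markers summed to 87.2, 118.2 and 167.9 and did not share the low value in KO, nor did the 6 keratocyte markers, at 1064.7, 3637.2 and 2201.4. The 6 corneal epithelium markers summed to 41915.6 in WT, against 29876.7 in KO and 17380.9 in KO_PBS. The 5 corneal endothelium markers did share the low value in KO, at 409.3, 232.8 and 1179.3. Of them 2 were lower and 0 higher in KO against WT, then 5 higher and 0 lower in KO_PBS against KO.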

How the data were processed

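The libraries are 10x Genomics 3' version 3 libraries of nuclei, per the labels. The values deposited are raw UMI counts for each gene in each barcode, and per the submitters' processing notes Cell Ranger 7.0.1 and mm10 were used. The annotation release, the treatment of introns, the use of strand and the barcode filter were not given in the sources used here. The gene and barcode lists deposited beside the counts hold identifiers only (other than counts). The lists differ: 32285 genes for WT and KO, 31053 for KO_PBS. The 30406 shared IDs held 99.64%, 99.63% and 99.35% of 256852883, 352627863 and 178988562 UMIs in WT, KO and KO_PBS. All barcodes were used, without doublet removal or clustering. WT and KO shared 2833 barcode sequences, KO and KO_PBS 3379, and WT and KO_PBS 2998.

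UMIs were summed per library and given as CPM. Intervals are exact Poisson for levels, exact binomial for ratios between libraries and Clopper-Pearson for shares, all 95%. For ratios between groups of barcodes, the Poisson limits of the chosen barcodes were divided by the reference level. That level was taken as fixed. Genes with fewer than 3 UMIs in a library were set to 3 for fold changes. The members and lists were chosen with earlier results of these data known. All 9 members are named. Of the other pathway genes, the 3 with the largest absolute log2 ratio among those called were named for each role and comparison, and of the genes most like the members, the 5 highest. Asip among the pathway genes and Lim2 among the lens markers had no shared ID. Choices made after the data were seen were the 100 richest barcodes, the barcodes picked by the other 8 members, the counts without Mc1r the comparison with the deepest 25% and the genes inside Gm20388. Scipy 1.17.1 gave the intervals, with numpy 2.4.6 and pandas 2.3.3 under python 3.11.15, and matplotlib 3.10.9 drew the figures.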

Additional observations from a re-analysis of the deposited data

How the results depend on the processing

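No paired analysis was possible because each group is 1 library. The counts of members called in each comparison kept within 1.5 times the reported ones under every alternative run: centring on the median gene, a total without mitochondrial and immunoglobulin genes, a 1.5-fold threshold, no UMI minimum, barcodes with at least 500 genes and at most 5% mitochondrial UMIs, no pigment-rich barcodes, only the shallowest 25%, and for KO_PBS without Mc1r. Some of these runs could hardly change a call, so they are weak checks. The UMI minimum could not, as the fewest UMIs of a member were 416. Filtering on genes and mitochondrial UMIs took WT from 96587 to 96547 barcodes and KO from 107031 to 107025. KO_PBS went from 114357 to 111899. By the main rule KO_PBS had no pigment-rich barcode to leave out. The 1.5-fold threshold and the UMI minimum cannot change a ratio. With both left aside, 79 of 135 alternative log2 ratios of members moved by less than their counting interval. The other 56 moved by more, and 0 of the 135 changed sign. The 79 include every ratio under the barcode filter. In the shallowest 25%, the log2 ratios of KO_PBS against KO were 4.09 for Tyr, 3.87 for Oca2 and 1.03 for Mitf. Over all barcodes they were 4.97, 4.72 and 1.64, while Pmel went the other way, from 5.88 over all barcodes to 5.99. The number of pigment-rich barcodes did depend on the rule. With 3 UMIs and 5 times it was 1966 in WT and 1926 in KO but 9 in KO_PBS, with 8 UMIs and 20 times it was 51 in WT and 18 in KO, and by standardized excess it was set at 100 in every library. Without Dct it was 58 in KO, and after thinning 22. With 3 UMIs and 5 times, the members' sum in barcodes rich in melanocyte markers was 1512.0 CPM in WT and 297.7 in KO, with 9767.5 in KO_PBS, and in those rich in pigment epithelium markers 1089.4 in WT and 425.7 in KO. With 8 UMIs and 20 times the latter were 2405.1 in WT and 764.1 in KO, with 5163.2 in KO_PBS, and the melanocyte rule gave no barcode. The cause of these shifts was not tested. Counts were large for the library levels, the fewest being the 416 UMIs of Slc45a2 in KO. In the 100 barcodes of KO picked by the other 8 members, counts were small for 4 genes. Mc1r had 4 UMIs there, Tyr and Oca2 6 each and Slc45a2 5, and in KO_PBS Mc1r had 1. With 1 library per group, a library effect and the effect of genotype or treatment cannot be told apart.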

Other observations

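The 100 barcodes richest in pigment UMIs also held other transcripts, which were picked out here after their values were seen. In WT the leading genes beside the members included the secreted proline-rich protein genes Gm8882 (41.13-fold higher than in the rest), Prpmp5 (39.25-fold) and Prb1 (34.71-fold), members of a multigene family with similar copies, so each value is uncertain. Spp1, a secreted matrix phosphoprotein, was 23.65-fold higher there, and Kcnj13, a potassium channel of retinal pigment epithelium, 18.67-fold. In KO, Ttr, the thyroxine carrier made by retinal pigment epithelium, was 11.12-fold higher in such barcodes. In KO_PBS the leading genes included Tbx20 (12.26-fold), a transcription factor, and Dach2 (11.75-fold). No gene was among the 8 leading ones of more than 1 library, a result that rests on the cut at 8. Gpnmb and Trpm1, among the 8 in KO, were also raised in WT (14.22 and 8.035-fold) and in KO_PBS (3.913 and 4.296-fold). Cox8b, also among the 8 in KO, was raised in WT (10.57-fold) but not in KO_PBS (0.9091).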
